A study of Homo sapiens with 6 samples.

Results

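The genes described here make, sense, store and export cholesterol. They were chosen by symbol from known roles: 8 enzymes that lead to isoprenoids, 11 enzymes of squalene and sterol synthesis, 4 genes that control the transcription factor SREBP2, 1 gene of lipoprotein uptake, 2 genes of sterol transfer and storage, and 3 genes of the LXR pathway and efflux. The list was made with earlier results of these data known. All 29 genes were among the 32692 genes of the deposited table. The cells were DU145, a line established from a human prostate carcinoma. They received OTI-611 at 5 µM, or the solvent DMSO as control, for 24 h before RNA was taken. The structure of OTI-611, a code name, is not given, and the series title names the chromatin remodeller CHD1L as the target. There were 3 libraries of each kind. No label says that they are separate cultures, so the p-values rest on library-to-library spread that may be technical.

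Cells make cholesterol from acetyl-CoA. The first part of the route passes through mevalonate to isoprenoid units, which also feed protein prenylation, dolichol and ubiquinone, and the second part joins these units into squalene, closes the rings and trims the sterol. SREBP2, encoded by SREBF2, turns on most of these genes: SCAP escorts it from the endoplasmic reticulum when sterols are low, and INSIG proteins hold it there when sterols are high. The LXR receptors respond to oxysterols and turn on export through ABCA1 and, through MYLIP, the breakdown of the receptor that takes up low-density lipoprotein.

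For 5 of the 6 libraries the unnamed unit was taken as RPKM, reads divided by gene length and by the size of the library. DMSO 1 lists whole numbers, taken here as RPKM without the decimals. Of the 29 genes, 20 were lower in DMSO 1 than the average of the other DMSO libraries and 8 were higher. Steps between low values gave an estimated 37.3 M, 37.4 M and 37.8 M reads for OTI-611 1 to 3 and 30.7 M and 32.4 M for DMSO 2 and DMSO 3, and no estimate for DMSO 1. The 6 epithelial markers summed to 483 to 529 RPKM with OTI-611 and 523 to 549 RPKM with DMSO, a sum in which KRT19 was the highest, and its members differed. CDH1 had 1.45 to 1.71 RPKM with OTI-611 and 4 to 4.80 RPKM with DMSO, CDH3 had 10.9 to 11.7 RPKM with OTI-611 and 20 to 22.4 RPKM with DMSO, and KRT8 had 103 to 109 RPKM with OTI-611 and 146 to 153 RPKM with DMSO. The ranges of KRT18, KRT19 and EPCAM overlapped between the groups, and the part of these markers in the results was not tested. Of the markers of androgen-responsive luminal prostate, KLK3, KLK2 and TMPRSS2 were at or near 0 in every library, and summed markers of leukocytes reached at most 0.0956 RPKM. CHD1L was listed at 0.585, 0.792 and 0.546 with OTI-611 and at 0, 0.662 and 0.691 with DMSO, under the minimum for testing.

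The cholesterol genes changed in both directions. Each part of the route had exceptions, with ACAT2 and MVD higher in the first part and TM7SF2 lower in the second. A split by step was not tested. Enzymes that phosphorylate mevalonate and isomerise its product fell, and several late sterol enzymes rose. STARD4, SOAT1 and ABCA1, which carry, store and export cholesterol, rose as well. No change was over 0.73 on the scale of log2(value + 1), which understates changes of low genes. For the low gene ABCA1, the OTI-611 mean was 2.02 times the mean of DMSO 2 and DMSO 3. In bulk RNA, fewer cells that use a gene and less of its RNA per cell cannot be told apart. Of the 29 genes, 28 averaged 1 RPKM or more across all 6 libraries and were tested, and NSDHL was not. With OTI-611, 13 rose and 7 fell at a limma adjusted p under 0.05, and 8 did not pass. The share called was 71.4%, against 65.2% of the 11978 genes tested across the table, so the number of calls was close to that of genes in general. The share that rose was 46.4% against 27.8% of all genes tested, and the share that fell was 25.0% against 37.3%. The median log2 fold change was 0.09 for the cholesterol genes and -0.05 for all genes tested. These differences between shares and medians were not tested. Since the list was made with earlier results of these data known, they cannot show that the pathway differs from other genes. In 19 of the 28 genes (67.9%) the ranges of OTI-611 and DMSO libraries did not overlap, against 70.2% of all genes tested.

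**Figure D1:**
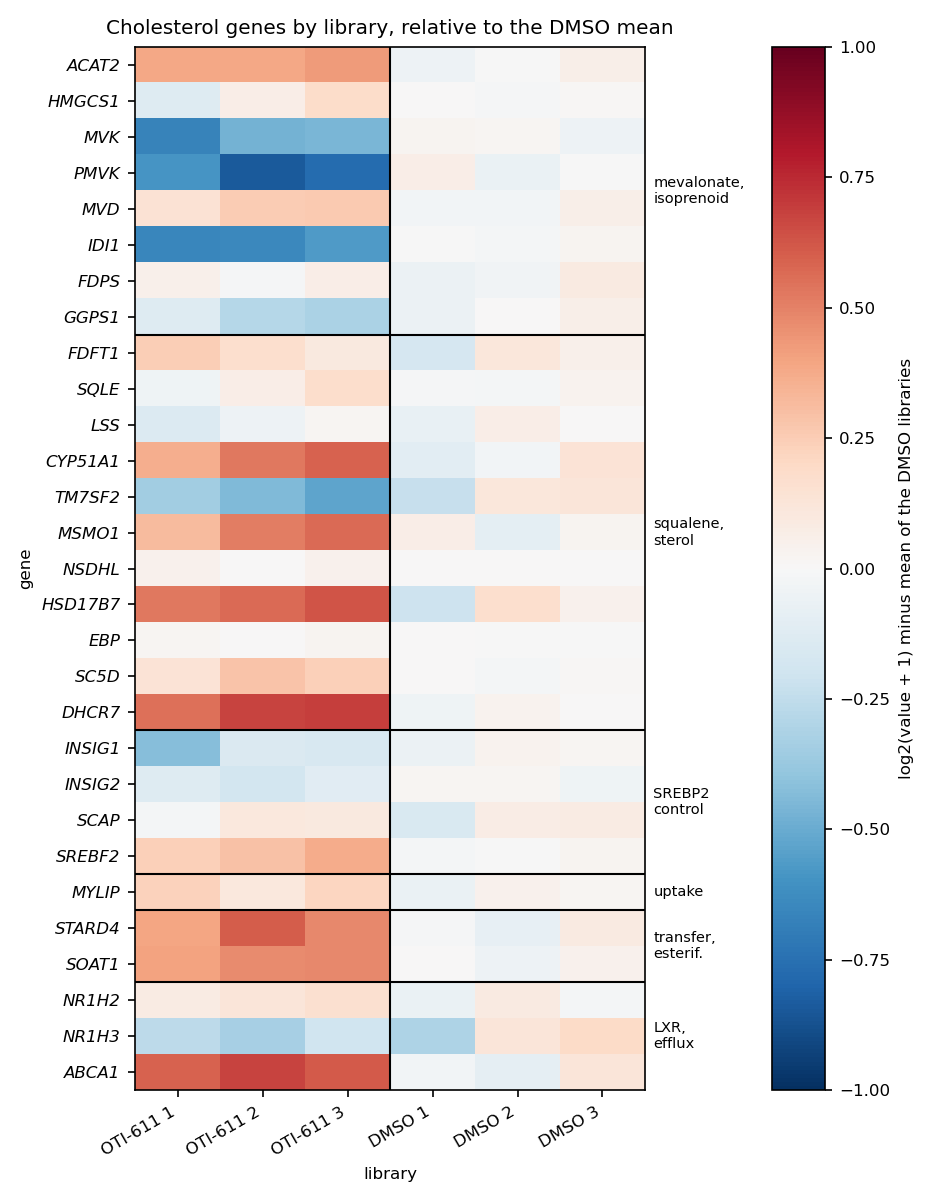
Each row is a gene and each column a library, with the OTI-611 libraries on the left and the DMSO libraries on the right; colour gives log2(value + 1) minus the mean of the 3 DMSO libraries, and black lines part the groups by role. PMVK, IDI1 and MVK are the deepest blue with OTI-611 and DHCR7 and ABCA1 among the deepest red.

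Levels differed widely among the genes. DHCR7 had the highest mean over the 6 libraries, 95.0 RPKM, followed by ACAT2 with 83.1, HMGCS1 with 56.9 and SREBF2 with 54.6 RPKM. At the low end stood ABCA1 with 1.60, FDFT1 with 1.39 and NSDHL with 0.00968 RPKM. NSDHL, an enzyme that removes a methyl carbon from the sterol ring, was listed at 0.0292, 0 and 0.0289 with OTI-611 and at 0 in all 3 DMSO libraries. FDFT1, which encodes squalene synthase, had 1.66, 1.52 and 1.40 RPKM with OTI-611 and 1, 1.43 and 1.33 RPKM with DMSO. Its groups overlapped and its log2 difference of 0.17 ± 0.13 (SE) did not pass (95% interval -0.11 to 0.45, limma adjusted p = 0.26), although it passed after quantile normalization (0.26, adjusted p = 0.023).

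Of 8 mevalonate and isoprenoid enzymes, 2 were higher and 4 lower with OTI-611, and their median log2 fold change was -0.10. PMVK, the second of the kinases that act on mevalonate, changed most. It had 23.1, 19.3 and 20.3 RPKM with OTI-611, against 37, 33.7 and 35.2 RPKM with DMSO. The highest OTI-611 library lay well under the lowest DMSO library, and the log2 fold change was -0.73 ± 0.062 (SE, limma adjusted p = 6.84e-06). Among all genes tested, 6.37% fell at least as far. The OTI-611 mean was 0.606 times the mean of DMSO 2 and DMSO 3, a ratio of the values themselves that leaves out DMSO 1. PMVK lies on chromosome 1 from 154924734 to 154936991 (minus strand, GENCODE v29 on GRCh38), and no other gene shares its exon bases there.

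IDI1 and MVK fell as well. IDI1, which converts isopentenyl diphosphate into its isomer, had 23.9, 24.1 and 25.4 RPKM with OTI-611, against 38, 37.6 and 38.9 RPKM with DMSO. Both groups were tight and far apart, with a log2 fold change of -0.62 ± 0.033 (SE) and, of all 28 genes, the smallest adjusted p (4.58e-07, limma). MVK, the first mevalonate kinase, had 4.55, 5.37 and 5.43 RPKM with OTI-611, against 8, 7.91 and 7.52 RPKM with DMSO. OTI-611 1 was the lowest library, and the change was -0.53 ± 0.068 (SE, limma adjusted p = 1.09e-04). GGPS1, which makes geranylgeranyl diphosphate, averaged 4.30 ± 0.37 RPKM with OTI-611 and 5.27 ± 0.26 RPKM with DMSO (SD, n = 3 each). It fell by 0.24 on the log2 scale (limma adjusted p = 0.014), but lost the call without OTI-611 2 (0.053), OTI-611 3 (0.057) or DMSO 3 (0.051), and the change was -0.16 after quantile normalization.

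The enzymes on either side of these steps did not follow them. ACAT2, which joins acetyl-CoA into acetoacetyl-CoA at the start of the route, had 93.8, 93.7 and 96.3 RPKM with OTI-611, against 69, 71.4 and 74.6 RPKM with DMSO. It rose by 0.40 ± 0.032 on the log2 scale (SE, limma adjusted p = 5.18e-06), with a clear gap between the groups. MVD, which decarboxylates the product of PMVK, averaged 27.5 ± 1.3 RPKM with OTI-611 and 23.5 ± 0.84 RPKM with DMSO (SD, n = 3 each) and rose by 0.22 (limma adjusted p = 0.0013). MVD thus rose between the falling PMVK and IDI1. FDPS, the synthase of farnesyl diphosphate, averaged 52.4 ± 1.5 RPKM with OTI-611 and 51.2 ± 2.9 RPKM with DMSO, with a log2 difference of 0.03 (95% interval -0.06 to 0.13).

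HMGCS1, which makes HMG-CoA, varied most among the OTI-611 libraries of this subgroup in absolute terms. It had 51.1, 58.8 and 63.7 RPKM with OTI-611, against 56, 55.6 and 56.3 RPKM with DMSO. OTI-611 1 lay below every DMSO library and the other OTI-611 libraries above them, and the log2 difference of 0.04 did not pass (95% interval -0.11 to 0.19, limma adjusted p = 0.61). Without OTI-611 1 it passed at 0.13 (adjusted p = 0.015), and without OTI-611 3 it was -0.03.

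Of the 11 squalene and sterol enzymes, 10 were tested, and 5 of them rose, 1 fell and 4 missed the threshold. Their median log2 fold change was 0.20. DHCR7, the reductase of the last step to cholesterol, rose most. It had 109, 119 and 120 RPKM with OTI-611, against 72, 76.1 and 74.1 RPKM with DMSO. All OTI-611 libraries lay far above the DMSO libraries, and the log2 fold change was 0.64 ± 0.040 (SE, limma adjusted p = 1.11e-06). The OTI-611 mean was 1.54 times that of DMSO 2 and DMSO 3, and 5.41% of all genes tested rose at least as far. DHCR7 lies on chromosome 11 from 71428193 to 71452868 (minus strand, GENCODE v29) with no exon bases shared.

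**Figure D2:**
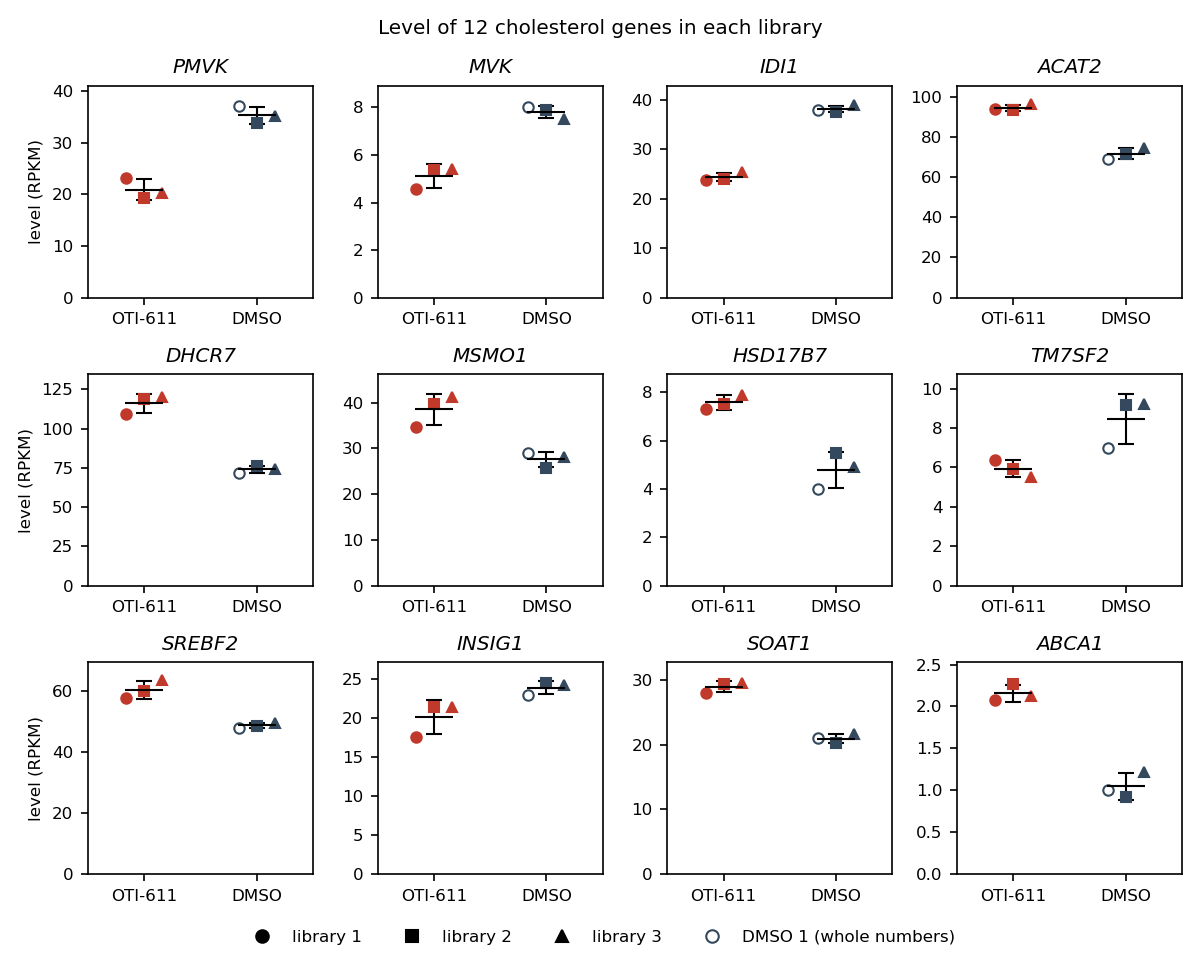
Points give the level of 12 genes in each library, in RPKM on axes that start at 0, with OTI-611 left of DMSO; bars give the mean and SD of the 3 libraries, and the open circle marks DMSO 1, which holds whole numbers. The 12 genes are a selection from those called, and the 2 groups do not overlap in any of them. Among the 28 genes tested the groups did not overlap in 67.9%, against 70.2% of all genes tested. OTI-611 lies below DMSO for PMVK, MVK, IDI1, TM7SF2 and INSIG1.

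The enzymes that strip methyl groups from lanosterol rose, apart from the untested NSDHL. CYP51A1, which takes off the first of them, had 4.54, 5.22 and 5.48 RPKM with OTI-611, against 3, 3.22 and 3.72 RPKM with DMSO, and rose by 0.50 ± 0.089 (SE, limma adjusted p = 8.90e-04). MSMO1, the methyl sterol monooxygenase, had 34.7, 39.8 and 41.2 RPKM with OTI-611, against 29, 25.7 and 28.1 RPKM with DMSO. It rose by 0.47 ± 0.066 (limma adjusted p = 1.97e-04), again with OTI-611 1 the lowest of its group. HSD17B7, the ketosteroid reductase of the same steps, averaged 7.58 ± 0.31 RPKM with OTI-611 and 4.80 ± 0.75 RPKM with DMSO (SD, n = 3 each) and rose by 0.57 (limma adjusted p = 4.07e-04). DMSO 1 was the lowest of its group at 4, and the rise without it was 0.47.

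SC5D, a desaturase near the end of the route, averaged 13.0 ± 0.72 RPKM with OTI-611 and 11.0 ± 0.12 RPKM with DMSO (SD, n = 3 each) and rose by 0.22 (limma adjusted p = 0.0024). TM7SF2, a sterol reductase whose step LBR also carries out, was the sterol enzyme that fell. It had 6.37, 5.92 and 5.51 RPKM with OTI-611, against 7, 9.15 and 9.23 RPKM with DMSO, a log2 fold change of -0.44 ± 0.096 (SE, limma adjusted p = 0.0029). DMSO 1 was the closest to the OTI-611 libraries, and the fall without it was -0.56. LBR averaged 50.7 ± 1.1 RPKM with OTI-611 and 51.8 ± 1.0 RPKM with DMSO, a log2 difference of -0.03 that did not pass (95% interval -0.10 to 0.03).

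SQLE, LSS and EBP did not pass. SQLE, the squalene epoxidase, averaged 47.6 ± 3.6 RPKM with OTI-611 and 45.3 ± 0.91 RPKM with DMSO (SD, n = 3 each). Its log2 difference of 0.07 had a 95% interval of -0.04 to 0.18, and it passed without OTI-611 1 (0.12, limma adjusted p = 0.023). EBP, a sterol isomerase, averaged 17.2 ± 0.19 RPKM with OTI-611 and 16.9 ± 0.064 RPKM with DMSO, with an interval of -0.05 to 0.09. LSS, which closes the rings, averaged 3.05 ± 0.22 RPKM with OTI-611 and 3.21 ± 0.20 RPKM with DMSO, with an interval of -0.24 to 0.13.

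**Figure D3:**
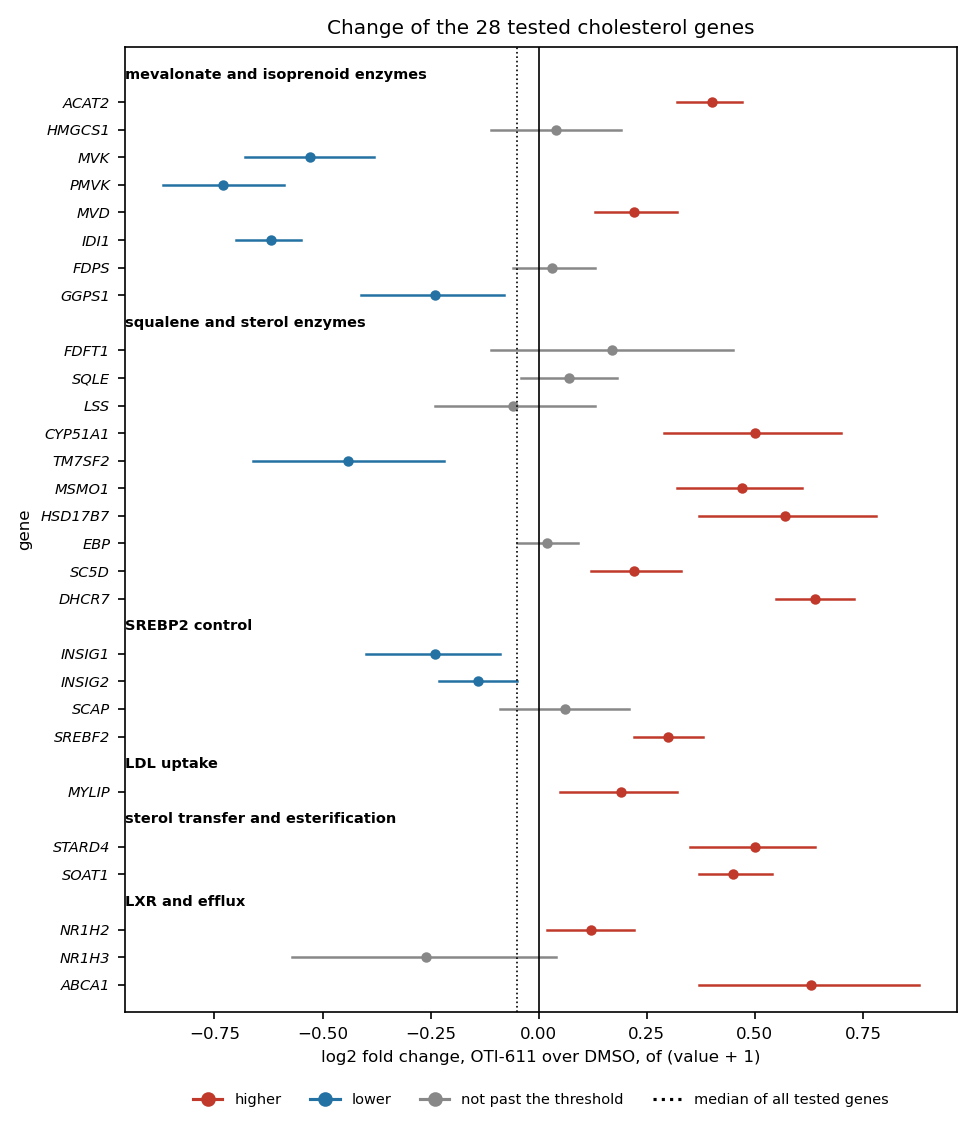
Points give the log2 fold change of OTI-611 over DMSO for the 28 tested genes and lines its 95% interval from limma, in pathway order within each role; the dotted line is the median of all genes tested, -0.05. On this scale of log2(value + 1), PMVK at -0.73 and DHCR7 at 0.64 mark the ends of the range.

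Some of these genes share sequence with others. By GENCODE v29, bases shared with exons of neighbouring genes make up 83.2% of the exons of CYP51A1, 52.3% for ACAT2, 41.0% for GGPS1, 18.6% for FDPS, 15.0% for HMGCS1 and 14.8% for IDI1. Whether counting used strand is not given in the sources used here, so the values of these genes are uncertain. For CYP51A1 and GGPS1 the gene that shares most lies on the same strand, so strand would not separate their reads. For CYP51A1 this gene is AC000120.2, which shares 79.4% of its exon bases. AC000120.2 was not found by symbol in the deposited table, and its part in the CYP51A1 rise was not tested. For ACAT2, one of the sharing genes is TCP1, a chaperonin subunit on the opposite strand, which averaged 140 ± 3.3 RPKM with OTI-611 and 164 ± 0.61 RPKM with DMSO (SD, n = 3 each), the opposite direction to ACAT2. TBCE, which shares exons with GGPS1, reached at most 0.143 RPKM, and IDI2-AS1, antisense to IDI1, at most 1.35 RPKM. The pseudogene CYP51A1P2 averaged 0.955 RPKM with OTI-611 and 0.294 RPKM with DMSO, and HSD17B7P2 reached at most 0.0573 RPKM.

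Promoter sequence is shown for SREBF2, which rose and carries the sterol element itself, for the sterol genes MSMO1 and DHCR7, which rose, and for MVK, which fell. The RefSeq windows on GRCh38.p14 run from 250 bases before to 50 after a start, and 26 of the 29 genes had a window; ACAT2, FDFT1 and SQLE had none in the table. The search covered both strands. It used a sterol regulatory element, TCACNCCAC, a binding motif of SREBPs, the NF-Y box CCAAT and the GC box GGGCGG. The NF-Y box is bound by a factor that works beside SREBPs. Each sequence is written 5′ to 3′ on the strand of its gene, and capitals mark the sterol element and the NF-Y boxes, written ATTGG where the box is on the other strand. They lie at chr22:41832855-41833154 (plus) for SREBF2, chr4:165327419-165327718 (plus) for MSMO1, chr11:71448344-71448643 (minus) for the more downstream of 2 DHCR7 windows, and chr12:109573544-109573843 (plus) for MVK.
SREBF2: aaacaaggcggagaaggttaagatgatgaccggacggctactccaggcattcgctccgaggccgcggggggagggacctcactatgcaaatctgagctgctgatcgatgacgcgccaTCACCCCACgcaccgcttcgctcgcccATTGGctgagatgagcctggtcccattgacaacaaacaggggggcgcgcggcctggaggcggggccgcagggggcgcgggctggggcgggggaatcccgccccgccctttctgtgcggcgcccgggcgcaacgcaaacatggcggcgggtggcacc
MSMO1: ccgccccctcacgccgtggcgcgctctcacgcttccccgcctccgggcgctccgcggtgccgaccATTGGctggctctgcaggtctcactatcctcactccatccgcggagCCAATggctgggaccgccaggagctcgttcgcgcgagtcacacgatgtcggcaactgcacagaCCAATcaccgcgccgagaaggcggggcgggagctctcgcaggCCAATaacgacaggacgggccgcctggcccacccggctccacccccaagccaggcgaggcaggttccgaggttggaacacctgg
DHCR7: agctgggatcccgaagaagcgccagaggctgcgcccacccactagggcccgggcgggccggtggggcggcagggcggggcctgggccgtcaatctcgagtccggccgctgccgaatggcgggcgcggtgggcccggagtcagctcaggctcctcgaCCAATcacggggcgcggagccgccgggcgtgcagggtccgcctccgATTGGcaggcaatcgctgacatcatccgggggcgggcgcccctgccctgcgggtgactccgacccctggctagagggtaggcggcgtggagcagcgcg
MVK: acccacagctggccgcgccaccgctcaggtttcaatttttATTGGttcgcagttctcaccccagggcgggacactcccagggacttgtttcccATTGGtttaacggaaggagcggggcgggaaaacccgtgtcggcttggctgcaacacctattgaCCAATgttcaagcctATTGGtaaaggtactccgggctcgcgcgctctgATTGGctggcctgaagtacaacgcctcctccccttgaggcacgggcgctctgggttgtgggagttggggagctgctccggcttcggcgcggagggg

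In SREBF2 the sterol element began 133 bases before the start and the NF-Y box 106 bases before it. It was the only gene of the 26 with a match to that element, 3.85%, against 1.43% of the 8820 tested genes with a window. With 1 match these shares cannot be compared. Only these exact letters within the window were searched, so a gene without a match may still hold another form of the element. The NF-Y box was present for 20 of the 26 genes, 76.9%, against 43.4% of those tested genes. MVK, which fell, held 5 NF-Y boxes and MSMO1, which rose, held 4, so the letters were present on both sides. The box was found in 9 of 12 genes that rose (75%), 5 of 7 that fell (71.4%) and 5 of 6 that did not pass (83.3%). The GC box was present for 25 of 26 genes (96.2%), against 78.9% of tested genes. Overlapping matches of the same motif occurred in 4 of 37 windows and overlaps between different motifs in 0. A match is a run of letters, and binding was not measured.

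RNA of the 4 genes of SREBP2 control moved in both directions: 1 rose, 2 fell and 1 did not pass (75.0% called, against 65.2% of all genes tested). The processing and activity of SREBP2 itself were not measured. SREBF2 had 57.7, 60.1 and 63.5 RPKM with OTI-611, against 48, 48.7 and 49.6 RPKM with DMSO. The DMSO libraries were tight, and the gene rose by 0.30 ± 0.036 on the log2 scale (SE, limma adjusted p = 7.07e-05). INSIG1, itself turned on by SREBPs, had 17.6, 21.5 and 21.4 RPKM with OTI-611, against 23, 24.6 and 24.3 RPKM with DMSO. All OTI-611 libraries were below the DMSO libraries, and the gene fell by 0.24 (limma adjusted p = 0.013). OTI-611 1 carried much of that: without it the change was -0.15, still past the threshold, and the call was lost with no filter on low values (adjusted p = 0.074) and with all libraries cut to whole numbers (0.069).

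INSIG2, the other retention protein, averaged 15.1 ± 0.40 RPKM with OTI-611 and 16.7 ± 0.43 RPKM with DMSO (SD, n = 3 each). It fell by 0.14 (limma adjusted p = 0.0094), and after rescaling to the median log ratio the change was -0.08 and did not pass (adjusted p = 0.16). SCAP, the escort, averaged 18.7 ± 0.94 RPKM with OTI-611 and 17.9 ± 1.7 RPKM with DMSO. Its log2 difference was 0.06 (95% interval -0.09 to 0.21), and without DMSO 1, listed at 16, it was -0.01.

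Both genes listed for sterol transfer and esterification rose, where 27.8% of all genes tested rose. STARD4, which carries sterol between membranes, had 16.3, 19.0 and 17.3 RPKM with OTI-611, against 12, 11.4 and 13.0 RPKM with DMSO, and rose by 0.50 ± 0.062 (SE, limma adjusted p = 9.31e-05). SOAT1, which esterifies cholesterol for storage, had 28.0, 29.4 and 29.5 RPKM with OTI-611, against 21, 20.2 and 21.6 RPKM with DMSO. It rose by 0.45 ± 0.038 (limma adjusted p = 6.46e-06), and both genes had a clear gap between the groups.

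Of the 3 genes of the LXR pathway and efflux, ABCA1 and NR1H2 rose and NR1H3 did not pass (66.7% called, against 65.2% of all genes tested). ABCA1, which passes cholesterol to apolipoproteins outside the cell, had 2.08, 2.27 and 2.12 RPKM with OTI-611, against 1, 0.917 and 1.22 RPKM with DMSO. The OTI-611 mean was 2.02 times that of DMSO 2 and DMSO 3, the highest ratio among the 28 genes tested. Its log2 fold change of 0.63 ± 0.11 (SE, limma adjusted p = 8.68e-04) understates a gene this low, and was 0.99 with a pseudocount of 0.1. With GENCODE lengths, its values stand for about 881 to 961 reads per OTI-611 library and 319 and 448 reads in DMSO 2 and DMSO 3. With all libraries cut to whole numbers, as DMSO 1 is, the log2 fold change was 0.92 with a wider error of 0.32 (SE), and the call was lost (adjusted p = 0.062).

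NR1H2, which encodes LXR beta, averaged 20.6 ± 0.57 RPKM with OTI-611 and 18.9 ± 1.1 RPKM with DMSO (SD, n = 3 each). DMSO 2, at 20.2 RPKM, lay above the lowest OTI-611 library. The rise of 0.12 passed narrowly (limma adjusted p = 0.043), and it was lost without OTI-611 2 (0.091), OTI-611 3 (0.13), DMSO 1 (0.13) or DMSO 3 (0.11), with no filter on low values (0.12), with no mean-variance trend (0.083) and with all libraries cut to whole numbers (0.11). NR1H3, LXR alpha, had 2.11, 1.95 and 2.24 RPKM with OTI-611, against 2, 3.04 and 3.24 RPKM with DMSO. DMSO 1 sat among the OTI-611 libraries, and the difference of -0.26 did not pass (95% interval -0.57 to 0.04, limma adjusted p = 0.11). Without DMSO 1 it was -0.42 and passed (adjusted p = 0.0019), and with 0.5 added to the values of DMSO 1 it was -0.34 (0.0076).

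MYLIP had 7.63, 6.92 and 7.52 RPKM with OTI-611, against 6, 6.58 and 6.46 RPKM with DMSO. It rose by 0.19 ± 0.058 (SE, limma adjusted p = 0.019), with a narrow gap between OTI-611 2 and DMSO 2. The call was lost without OTI-611 1 (0.070) or OTI-611 3 (0.066), with no filter on low values (0.052) and with all libraries cut to whole numbers (0.13).

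The OTI-611 libraries kept a similar order across the genes. OTI-611 1 was the lowest of its group in 18 of the 28 tested genes (64.3%), against 30.8% of all genes tested, and OTI-611 3 the highest in 18 (64.3%), against 29.4%. In the sterol enzymes OTI-611 1 was lowest in 7 of 10, among them CYP51A1, MSMO1 and DHCR7. These libraries are replicates of one treatment, and the shares are given as a description.

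Of 62 further genes of sterol and isoprenoid handling, listed by role with earlier results known, 60 were in the table and 52 were tested. With OTI-611, 13 rose and 21 fell (65.4% called, against 65.2% of all genes tested), with a median log2 fold change of -0.04. NPC1, the membrane protein that exports cholesterol from lysosomes, stood out in size. It had 137, 139 and 144 RPKM with OTI-611, against 52, 52.3 and 55.5 RPKM with DMSO. The OTI-611 mean was 2.60 times that of DMSO 2 and DMSO 3, with a log2 fold change of 1.38 ± 0.033 (SE, limma adjusted p = 8.09e-09), and 0.609% of all genes tested rose at least as far. Its partner NPC2, the soluble lysosomal carrier, averaged 90.5 ± 0.70 RPKM with OTI-611 and 71.5 ± 1.8 RPKM with DMSO (SD, n = 3 each) and rose by 0.34.

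Of the 18 lysosomal and membrane transfer genes, 6 rose and 6 fell (66.7% called, against 65.2% of all genes tested). OSBPL8, a lipid transfer protein of membrane contacts, rose by 0.44 (limma adjusted p = 2.27e-05), and SCP2, a sterol carrier protein, fell by 0.47 (4.72e-05). VAPB, a tether of the endoplasmic reticulum at membrane contacts, fell by 0.33 (limma adjusted p = 6.09e-04). LIPA, the lysosomal esterase that frees cholesterol, fell by 0.14 (limma adjusted p = 8.34e-04), a call lost after rescaling to the median log ratio (-0.09, adjusted p = 0.087). Of 7 tested genes of SREBP processing, 1 rose, 4 fell and 2 did not pass, where 37.3% of all genes tested fell. MBTPS1, the protease that makes the first cut in SREBPs, averaged 35.5 ± 0.48 RPKM with OTI-611 and 47.1 ± 0.94 RPKM with DMSO and fell by 0.40 (limma adjusted p = 2.36e-06). TMEM97, a sterol-regulated membrane protein, fell by 0.16 (limma adjusted p = 0.0061), a call lost after rescaling to the median log ratio (-0.10, adjusted p = 0.10). MBTPS2, the protease of the next cut, and ERLIN2, which acts in sterol-linked degradation, fell by 0.15 and 0.13 with limma adjusted p of 0.040 and 0.035, and both calls were lost with no filter on low values (0.098 for MBTPS2 and 0.091 for ERLIN2) and in several other settings.

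Among 13 tested genes of prenyl transfer, dolichol and ubiquinone, 2 rose, 4 fell and 7 did not pass (46.2% called, against 65.2% of all genes tested). PDSS1, which builds the side chain of ubiquinone, fell by 0.65 (limma adjusted p = 9.77e-06), DHDDS, a dolichol synthase subunit, by 0.37 (2.76e-05) and ICMT, which methylates prenylated proteins, by 0.24 (1.80e-04). Of 7 oxysterol, LXR partner and efflux genes, 1 rose (14.3%) and 5 fell (71.4%), against 27.8% and 37.3% of all genes tested. The lipid transporter ABCA7 fell by 0.61 and the nuclear receptor coactivator NCOA5 by 0.47, and MED15, a Mediator subunit, rose by 0.21. RXRA, the partner of the LXR receptors, fell by 0.34 (limma adjusted p = 4.54e-04); RXRA, SCP2, VAPB, LIPA, LBR, MBTPS2 and ERLIN2 are outside the naming rule and were picked after their values were seen. ABCA7 and ABCA1 thus moved in opposite directions.

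Of 7 other enzymes, 3 rose and 2 fell (71.4% called, against 65.2% of all genes tested). HSD17B12, a reductase of fatty acid elongation, rose by 0.68 (limma adjusted p = 2.98e-05), while ACAT1, the mitochondrial counterpart of ACAT2, fell by 0.26 (9.74e-05) and AACS, which activates acetoacetate, fell by 0.32 (0.0025).

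**Figure D4:**
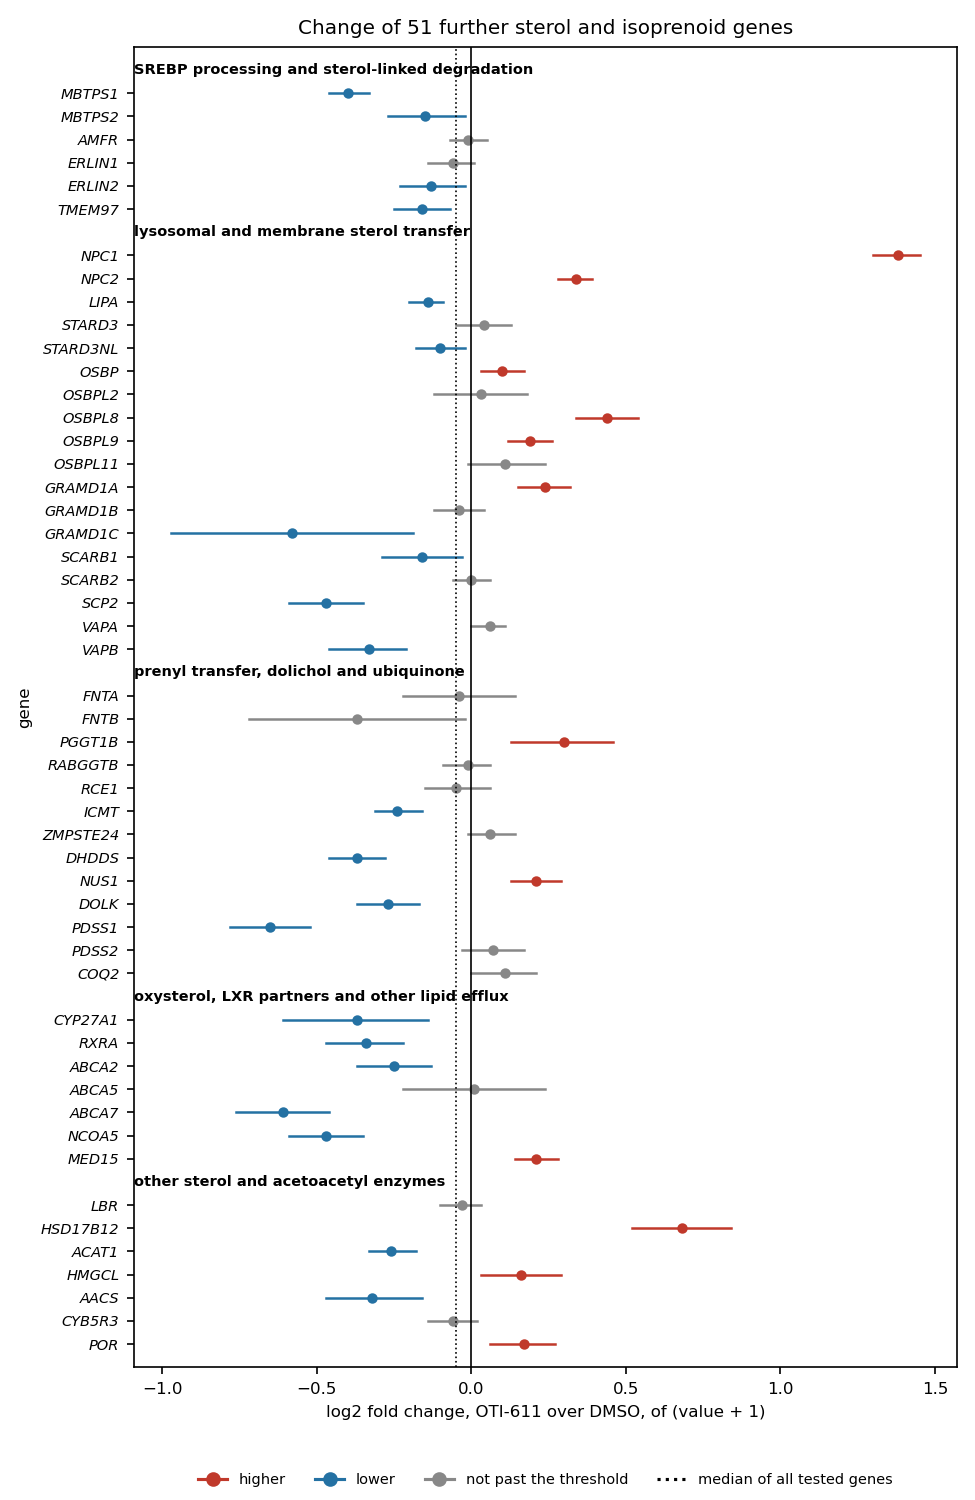
Points give the log2 fold change of OTI-611 over DMSO for 51 of the 52 further genes tested and lines its 95% interval from limma, grouped by role; the dotted line is the median of all genes tested, -0.05. NPC1 at 1.38 lies apart from the others, which span -0.65 to 0.68.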

How the data were processed

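Per the labels' protocols, RNA from a miRNeasy kit was amplified as in Geo-seq and made into libraries with TruePrep reagents. TopHat2 2.0.9, HTSeq, Cufflinks 2.1.1, CASAVA 1.7, FastQC and the mouse build mm10 are named, without roles, in the submitters' processing notes; all 32692 gene IDs are human, so the build and annotation used are not established. The authors deposited 1 column per library with no named unit. From the values, 5 columns were taken as RPKM (FPKM would look the same), and DMSO 1, which the authors deposited as whole numbers, as a score on that scale. Depth was estimated from the steps of low values with GENCODE v29 exon lengths; 64.5% to 66.2% of values up to 20 reads were whole within 0.05. These depths and read numbers are estimates, and no molecular identifiers are named.

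Values were analysed as log2(value + 1) for the 11978 genes with a mean of at least 1, with limma 3.58.1 in R 4.3.3 (group as the only term, mean-variance trend, two-sided, Benjamini-Hochberg over all genes tested, threshold 0.05). This scale understates changes of low genes. The code of the fit was also run on simulated data with far fewer changed genes than were called here. That run checks the code and cannot vouch for the calls in these data. Ratios use the mean of DMSO 2 and DMSO 3. All 29 genes were named, plus up to 3 per further subgroup by smallest p, and CHD1L, with the exceptions stated in the report; the members and lists were chosen with earlier results of these data known. Value columns left unused numbered 0. For 1 gene of the wider list, counted in its totals, values are not reported here.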

Additional observations from a re-analysis of the deposited data

How the results depend on the processing

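Across 16 other settings (pseudocounts of 0.1 and 0.5, no filter or a minimum mean of 5, quantile normalization, rescaling to the median log ratio, a replicate block, no mean-variance trend, each library left out, all libraries cut to whole numbers, 0.5 added to the values above 0 of DMSO 1), the cholesterol genes that rose numbered 10 to 14 and those that fell 6 to 8, and 14 of the 20 calls held in every setting that tested the gene. The wider list gave 11 to 17 rises and 15 to 22 falls, and all genes 2700 to 4085 rises and 3179 to 5352 falls. The median log2 fold change of the cholesterol genes was 0.07 to 0.13 with each library left out and 0.15 after rescaling, which centres the median of all genes at 0.00. Directions turned only for genes that did not pass: LSS was 0.05 after quantile normalization and 0.00 after rescaling, and with each library left out HMGCS1 ranged from -0.03 to 0.13 and SCAP from -0.01 to 0.10; the cause was not tested. The replicate block gave 13 rises and 7 falls among the cholesterol genes, the counts of the fit without it, and 3327 rises and 4429 falls among all genes. Deviations from the group means of libraries with the same number correlated at 0.019, 0.000 and -0.058, and OTI-611 1 correlated best with DMSO 3 (0.030). No pairing by number was seen. With 3 libraries per group and the dropped decimals of DMSO 1, these values cannot show whether same-numbered libraries share a batch or culture. The dropped decimals of DMSO 1 are large beside the levels of FDFT1, NR1H3 and ABCA1. NSDHL had an estimated 2.2 reads in each of the OTI-611 libraries that list it, and the reason for its low value was not tested. Count tests were not run, since the table held no counts.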
